A study of Homo sapiens with 18 samples.

Results

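The AP-1 transcription factors described here are 10 genes chosen by symbol, FOS, FOSB, FOSL1, FOSL2, JUN, JUNB, JUND, ATF3, BATF3 and MAFF, out of 58381 rows in each table of gene counts. All 10 were found in each of the 3 tables and passed the low-count filter in each line. AP-1 is a pair of basic leucine zipper (bZIP) proteins, held together by their zippers and bound to DNA by their basic regions. The FOS family proteins (FOS, FOSB, FOSL1 and FOSL2) bind DNA as partners of a JUN family protein, while JUN, JUNB and JUND can also pair among themselves. ATF3, BATF3 and the small MAF protein MAFF belong to the same superfamily and pair with members of it. Many of these genes are immediate-early genes, switched on quickly by growth factor and stress kinases, and AP-1 is known for its part in matrix remodelling, cell migration and mesenchymal gene expression.

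RNA sequencing measured transcripts in TC-32, TC-71 and A673, established lines of Ewing sarcoma, a bone and soft tissue tumour in which EWSR1 is fused to an ETS family gene, here FLI1. In each line, 3 libraries came from cells reverse transfected with 20 nM of a negative control small interfering RNA (siNeg) and 3 from cells given 20 nM of an siRNA to FLI1 (siFLI1), so the 18 libraries formed 6 groups of 3. The siRNA also reaches transcripts of the fusion. All groups shared the transfection reagent, and the labels name 1 siRNA to FLI1, so its effects on unrelated transcripts cannot be told apart from loss of FLI1. TC-32 and TC-71 were grown in RPMI and A673 in DMEM, and the columns of TC-32 and TC-71 name 48 h while those of A673 name no time. Line therefore cannot be told apart from medium or time where A673 is compared with the others, nor from the counting tool where TC-71 is. The labels do not say whether replicates were separate cultures, so p-values measure the spread between these libraries, which may be technical.

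Library totals spanned 24102487 to 33669235 counts for TC-32, 19685354 to 37234528 for TC-71 and 114564472 to 120993558 for A673. FLI1, the target, fell in each line. Its log2 fold changes, listed from TC-32 through TC-71 to A673, were -1.03, -1.47 and -2.09 (highest edgeR adjusted p = 1.85e-13), which left 48.9%, 35.9% and 23.5% of the siNeg level. All of the 8 Ewing sarcoma markers that were tested fell, which were 8, 7 and 8 of the list. CD99 was at 0 in every TC-71 library and was not tested there, against 165 CPM in siNeg of TC-32 and 365 in siNeg of A673. CD99 has a further row, left out of these CPM, which was also at 0 in TC-71. TC-71 alone was counted with Subread, so absent expression and an effect of counting cannot be told apart. PTPRC, PECAM1 and EPCAM, markers of blood, endothelium and epithelium, did not exceed 2.10 CPM as a group mean, where CPM is the count scaled to a fixed library total after TMM, edgeR's correction for library composition. TMM was taken within each line, so CPM are not on a common scale between lines. PECAM1 was called lower in TC-32 (2.10 to 0.433 CPM) and A673 (0.483 to 0.224 CPM), and its part in the results below was not tested.

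Most of the 10 genes rose when FLI1 was lowered, but which of them rose, and by how much, differed between lines. FOSL2, JUN, JUNB, ATF3 and MAFF rose in all 3 lines. ATF3 led in TC-32 with a log2 fold change of 3.12, FOSB led in TC-71 with 4.18, and FOSL1 led in A673 with 4.35. By edgeR's quasi-likelihood test with Benjamini-Hochberg adjustment over all genes, TC-32 had 8 members called higher and FOS lower. For TC-71 the test called 9 higher and BATF3 lower, and for A673 it called 7 higher and JUND lower. These counts stand beside a large response of the transcriptome. The share of all genes called was 81.4% for TC-32, with 41.3% up and 40.1% down. It was 71.9% for TC-71, with 36.8% up and 35.0% down, and 71% for A673, with 35.6% up and 35.4% down. The A673 split rests on TMM, since 6565 genes were called up and 6531 down with it, and 5488 up and 7929 down when scaled to library size alone. The groups of the 2 siRNAs did not overlap for 10, 10 and 9 members, and for 82.6%, 73.8% and 73.6% of all genes. The number called at least 2-fold higher was 4, 7 and 7 of 10 members (TC-32 first, A673 last), against 22.0%, 14.1% and 13.3% of all genes. Higher calls in all 3 lines were made for 5 of the 10 members and for 18.9% of the 14233 genes tested in all 3. The members were chosen while earlier results of these data were known, so an excess over all genes is no test of the list. Member medians of the log2 fold change, with the lines in the order TC-32, TC-71 and A673, were 0.94, 2.21 and 2.26, and medians over all genes 0.022, 0.018 and -0.0066. In bulk RNA, a change in the number of cells that express a gene and a change in the level per cell cannot be told apart.

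**Figure D1:**
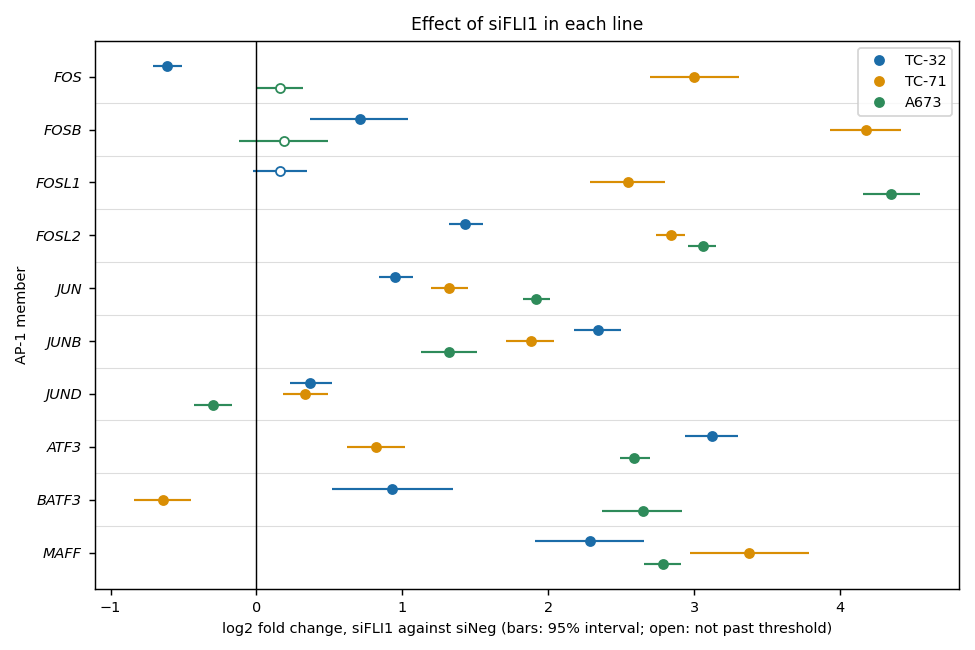
Log2 fold change of siFLI1 against siNeg (x axis) for each AP-1 member (y axis) in each line (colours), with bars for the 95% interval from edgeR and open symbols where the adjusted p did not pass 0.05. FOSL2, JUN, JUNB, ATF3 and MAFF lie to the right of 0 in all 3 lines, while FOS, FOSB and FOSL1 range from near or below 0 to at least 3.00 between lines.

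The JUN family comes first because every AP-1 pair with a FOS protein needs one of its members. JUN (ENSG00000177606.9) is the founding member and a target of the JNK kinases, JUNB a relative that is a weaker activator in many settings, and JUND the member most often described as constitutive. In GENCODE release 44 (GRCh38), JUN lies on chromosome 1 from 58776845 to 58784048, JUNB on chromosome 19 from 12791486 to 12793315 and JUND on chromosome 19 from 18279694 to 18281622. JUNB shares 14.2% of its exon bases with HOOK2 on the opposite strand. Whether counting used strand is not given in the sources used here, so its counts are uncertain by an amount that is not known. The 250 bases before the RefSeq start of each gene (GRCh38.p14) are printed below 5′ to 3′ on the gene's strand. Windows were printed where they held at most 30 annotated exon bases. Capitals mark TGACG, the half-site of the cyclic AMP response element, in either direction, the full element TGACGTCA, which contains it, and TGACATCA, the site through which JUN is known to regulate its own promoter. JUN is read from chr1:58784048-58784297 on the minus strand, JUNB from chr19:12791236-12791485 on the plus strand and JUND from chr19:18281623-18281872 on the minus strand.
JUN: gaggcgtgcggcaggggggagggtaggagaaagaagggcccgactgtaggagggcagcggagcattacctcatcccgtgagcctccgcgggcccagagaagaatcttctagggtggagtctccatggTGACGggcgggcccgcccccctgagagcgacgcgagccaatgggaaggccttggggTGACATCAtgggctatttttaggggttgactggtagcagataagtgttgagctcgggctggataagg
JUNB: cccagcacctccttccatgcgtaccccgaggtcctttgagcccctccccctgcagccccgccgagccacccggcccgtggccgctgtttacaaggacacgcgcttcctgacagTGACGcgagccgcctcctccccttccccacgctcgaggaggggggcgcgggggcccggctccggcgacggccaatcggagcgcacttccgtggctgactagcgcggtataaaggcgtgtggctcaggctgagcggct
JUND: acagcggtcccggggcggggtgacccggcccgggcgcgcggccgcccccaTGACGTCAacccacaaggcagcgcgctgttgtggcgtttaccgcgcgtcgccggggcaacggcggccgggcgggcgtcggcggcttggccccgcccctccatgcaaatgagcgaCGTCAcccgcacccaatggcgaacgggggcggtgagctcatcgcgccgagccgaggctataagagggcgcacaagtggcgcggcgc
Among 35116 windows of the same length in the RefSeq table, 21.2% hold TGACG, 1.65% TGACGTCA and 2.37% TGACATCA, counted on both strands. The JUN window holds TGACATCA 67 bases before the start and TGACG at 123, and the JUNB window holds TGACG at 137. In the JUND window, TGACGTCA begins 200 bases before the start.

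JUN in TC-32 measured 93.2, 100 and 95.7 CPM in siNeg and 173, 204 and 182 in siFLI1, which edgeR put at 0.95 on the log2 scale (SE 0.0545, adjusted p = 1.37e-13). In TC-71, JUN was at 68.8, 76.7 and 74.8 CPM in siNeg and at 182, 202 and 166 in siFLI1, which edgeR put at 1.32 on the log2 scale (SE 0.0601, adjusted p = 1.85e-15). A673 had 23.2, 22.6 and 22.8 CPM of JUN in siNeg and 86.1, 86.7 and 86.6 in siFLI1, which edgeR put at 1.92 on the log2 scale (SE 0.0401, adjusted p = 3.24e-16). No siFLI1 library overlapped siNeg for JUN in any line. This was so for 82.6%, 73.8% and 73.6% of all genes (TC-32 first, A673 last). TC-32 (186 ± 15.9 CPM, SD, n = 3) and TC-71 (184 ± 18) did not differ beyond their spread in siFLI1, although TC-71 was lower in siNeg. These CPM were scaled within each line and counted with different tools, and the levels were not tested against each other.

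JUNB in TC-32 measured 13.6, 13.8 and 15.8 CPM in siNeg and 65.8, 79.8 and 72.7 in siFLI1, which edgeR put at 2.34 on the log2 scale (SE 0.0773, adjusted p = 5.31e-18). In TC-71 it was at 21.3, 24.2 and 21.2 CPM in siNeg and at 80.5, 92.4 and 71.1 in siFLI1, which edgeR put at 1.88 on the log2 scale (SE 0.0812, adjusted p = 3.37e-15). In A673 it was at 2.86, 3.16 and 2.90 CPM in siNeg and at 6.57, 8.18 and 7.47 in siFLI1, which edgeR put at 1.32 on the log2 scale (SE 0.0892, adjusted p = 1.28e-09). JUNB thus rose most where JUN rose least, and its A673 libraries stayed below those of the other lines with either siRNA. That comparison of levels rests on CPM scaled within each line and was not tested.

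JUND changed by the least of the JUN family. TC-32 libraries held 37.5, 35.3 and 38.0 CPM of JUND in siNeg and 41.9, 51.3 and 50 in siFLI1, which edgeR put at 0.37 on the log2 scale (SE 0.0696, adjusted p = 3.69e-05). TC-71 libraries held 40.3, 43.1 and 41.9 CPM in siNeg and 57, 56.6 and 44.9 in siFLI1, which edgeR put at 0.33 on the log2 scale (SE 0.0738, adjusted p = 3.42e-04). A673 libraries held 29.3, 27.5 and 33.1 CPM in siNeg and 23.1, 25.1 and 24.7 in siFLI1, which edgeR put at -0.30 on the log2 scale (SE 0.0616, adjusted p = 3.85e-04). The siRNA groups did not overlap in any line, as for 82.6%, 73.8% and 73.6% of all genes (TC-32 first, A673 last). However, siFLI1 replicate 3 of TC-71 lay close to siNeg. Without that library the TC-71 value was 0.45.

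The FOS family showed the widest differences between lines. FOS is the classical immediate-early partner of JUN, FOSB its closest relative, and FOSL1 (FRA-1) and FOSL2 (FRA-2) are longer-lived partners associated with mesenchymal and invasive states. FOS lies on chromosome 14 from 75278826 to 75282230, FOSB on chromosome 19 from 45467995 to 45475179, FOSL1 on chromosome 11 from 65892049 to 65900573 and FOSL2 on chromosome 2 from 28392448 to 28417317, and none of them shares exon bases with another gene. The windows of FOS (chr14:75278578-75278827, plus strand) and FOSB (chr19:45467746-45467995, plus strand) are printed with the same marking. They were chosen because each held at most 30 annotated exon bases.
FOS: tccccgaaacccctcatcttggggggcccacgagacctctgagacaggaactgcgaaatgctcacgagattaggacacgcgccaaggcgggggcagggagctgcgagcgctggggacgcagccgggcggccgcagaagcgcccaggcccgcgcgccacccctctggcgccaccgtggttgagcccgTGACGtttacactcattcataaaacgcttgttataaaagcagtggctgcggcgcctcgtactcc
FOSB: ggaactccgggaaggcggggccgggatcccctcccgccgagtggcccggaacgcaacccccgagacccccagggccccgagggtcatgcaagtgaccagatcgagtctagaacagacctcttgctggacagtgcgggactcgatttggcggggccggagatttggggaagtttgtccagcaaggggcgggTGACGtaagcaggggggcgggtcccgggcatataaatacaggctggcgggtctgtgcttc
TGACG begins 64 bases before the start of FOS and 60 before that of FOSB. Of the 8 members with a window in the RefSeq table, 7 hold TGACG (FOS, FOSB, FOSL2, JUN, JUNB, JUND and MAFF), 2 hold TGACGTCA (JUND and MAFF) and 2 hold TGACATCA (JUN and ATF3). None of the 8 holds the AP-1 site TGANTCA, the ETS repeat GGAAGGAA or a CArG box, the core of the serum response element, which are in 6.57%, 3.06% and 1.16% of all windows. FOSL1 and BATF3 are not in that table. ATF3 and MAFF were searched in 2 windows each, whereas the shares of all windows count single windows. The MAFF window with TGACGTCA lies wholly in annotated exon (250 bases), and the ATF3 window with TGACATCA holds 73 exon bases. These matches are descriptions of the letters in 250 bases and say nothing of binding. Sequence farther upstream was not searched, so a gene without a match here may hold the element outside the window.

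FOS moved in opposite directions in TC-32 and TC-71. In TC-32 it measured 148, 153 and 157 CPM in siNeg and 98.5, 105 and 96.1 in siFLI1, which edgeR put at -0.61 on the log2 scale (SE 0.0478, adjusted p = 1.88e-11). In TC-71 it measured 7.80, 10.3 and 9.06 CPM in siNeg and 64.5, 86.6 and 65.1 in siFLI1, which edgeR put at 3.00 on the log2 scale (SE 0.137, adjusted p = 2.39e-09). FOS was the most abundant FOS family transcript of TC-32 per exon length with siNeg, and the siFLI1 levels of TC-32 (100 ± 4.81 CPM, SD, n = 3) and TC-71 (72.1 ± 12.6) lay closer than those of siNeg. A673 held 5.61, 5.47 and 5.54 CPM in siNeg and 5.59, 6.55 and 6.44 in siFLI1, and the groups overlapped. The log2 fold change of FOS there was 0.16 (95% interval -3.3e-04 to 0.32, edgeR adjusted p = 0.0691), and without siFLI1 replicate 1 it was 0.24 and past the threshold (edgeR adjusted p = 0.00593).

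FOSB rose most in TC-71 as well. Its TC-71 libraries held 1.45, 2.18 and 1.49 CPM in siNeg, from 39 to 43 counts, and 29.4, 32.5 and 28.5 CPM in siFLI1, from 718 to 1058 counts. The log2 fold change was 4.18 (SE 0.119, edgeR adjusted p = 6.15e-23), the largest of the 10 members in that line. In TC-32, FOSB went from 3.43, 2.30 and 2.74 CPM to 4.75, 4.04 and 5.01, which edgeR put at 0.71 on the log2 scale (SE 0.164, adjusted p = 3.92e-04). A673 stayed below 1 CPM with either siRNA, at 0.765, 0.812 and 0.818 in siNeg and 0.849, 0.962 and 0.918 in siFLI1. The A673 groups did not overlap, as was so for 73.6% of all genes there, but the log2 fold change of 0.19 did not pass the test (95% interval -0.12 to 0.49, edgeR adjusted p = 0.250).

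FOSL1 gave the largest change of any member in any line. A673 libraries held 6.69, 6.26 and 4.85 CPM of FOSL1 in siNeg and 115, 125 and 124 in siFLI1, a 20.4-fold rise with which edgeR put at 4.35 on the log2 scale (SE 0.0887, adjusted p = 5.40e-14). TC-71 libraries held 1.89, 2.33 and 2.46 CPM in siNeg and 12.3, 14.0 and 12.8 in siFLI1, which edgeR put at 2.55 on the log2 scale (SE 0.126, adjusted p = 3.46e-17). TC-32 libraries held 8.83, 9.27 and 9.09 CPM in siNeg and 9.77, 10.5 and 10.1 in siFLI1. The TC-32 groups did not overlap (82.6% of all genes there did not), yet the log2 fold change of 0.16 did not pass the test (95% interval -0.027 to 0.35, edgeR adjusted p = 0.104). Scaled to library size alone, it was 0.21 and passed (edgeR adjusted p = 0.0431).

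FOSL2 rose in all 3 lines. It went from 48.5, 55.4 and 53.2 CPM to 140, 148 and 137 in TC-32, which edgeR put at 1.43 on the log2 scale (SE 0.0546, adjusted p = 1.03e-17). TC-71 went from 41.9, 42.6 and 41.8 CPM to 296, 311 and 296, which edgeR put at 2.84 on the log2 scale (SE 0.0474, adjusted p = 1.32e-28). A673 went from 16.5, 16.7 and 16.7 CPM to 133, 141 and 141, which edgeR put at 3.06 on the log2 scale (SE 0.0438, adjusted p = 4.22e-18). The replicates of FOSL2 lay close together and far from the other siRNA in each line. It was the only FOS family member called higher in all 3 lines.

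**Figure D2:**
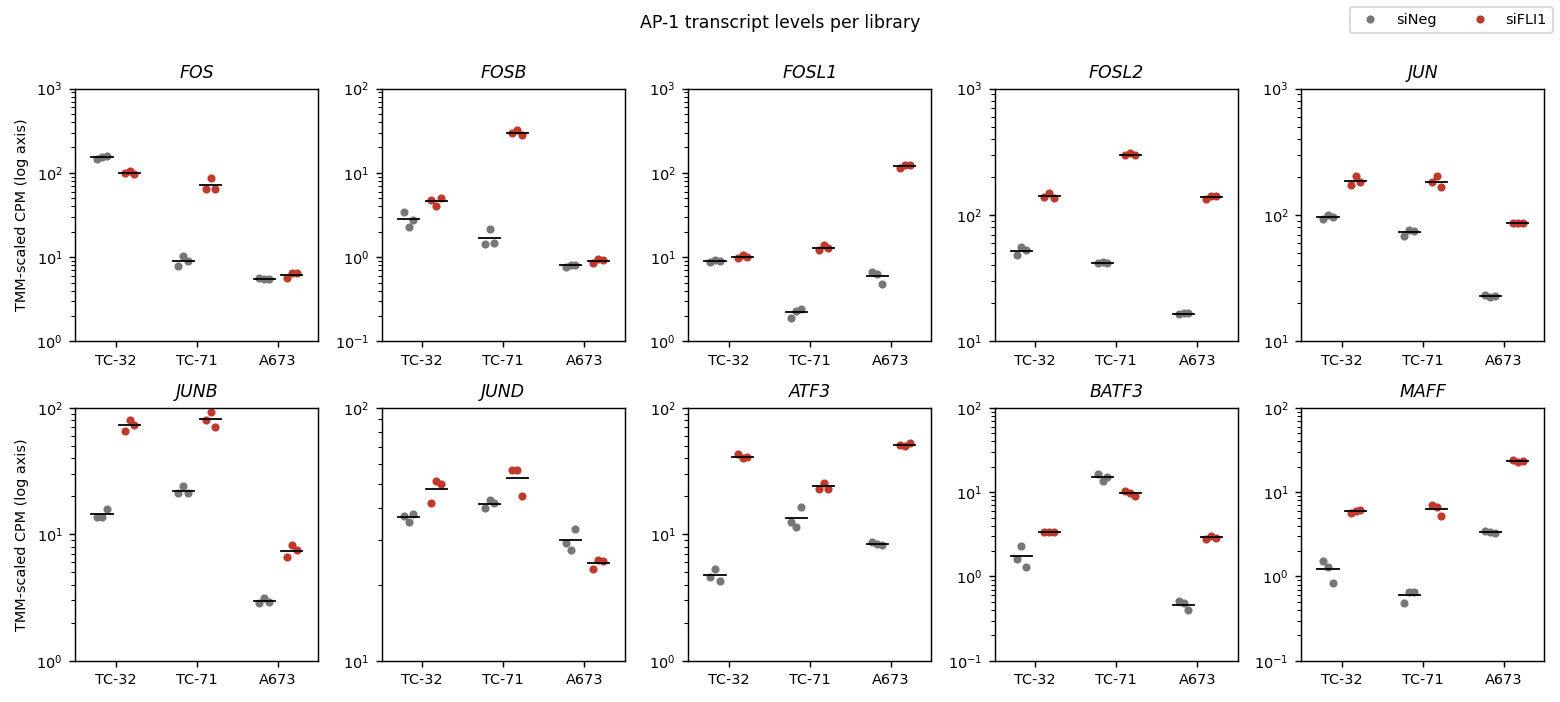
TMM-scaled CPM (log y axis, with its own range for each gene) of each AP-1 member in every library of TC-32, TC-71 and A673 (x axis). Grey points are siNeg libraries, red points siFLI1 libraries and black lines group means of 3; FOS in TC-32 and BATF3 in TC-71 are lower in siFLI1, and the FOSL1 points of A673 lie at 115 to 125 in siFLI1 against 4.85 to 6.69 in siNeg.

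The remaining members pair with the FOS and JUN proteins or with other bZIP proteins. ATF3 is a stress-induced factor that often represses when it binds as a pair with itself. It lies on chromosome 1 from 212565334 to 212620777. In TC-32, ATF3 measured 4.61, 5.28 and 4.29 CPM in siNeg and 43.2, 39.9 and 40.5 in siFLI1, which edgeR put at 3.12 on the log2 scale (SE 0.0865, adjusted p = 1.68e-20), the largest of the 10 members in that line. A673 had 8.73, 8.38 and 8.23 CPM in siNeg and 50.4, 49.9 and 52.6 in siFLI1, which edgeR put at 2.59 on the log2 scale (SE 0.0486, adjusted p = 8.88e-17). TC-71 rose less, from 12.4, 11.4 and 16.3 CPM to 23.0, 25.6 and 23.0, which edgeR put at 0.82 on the log2 scale (SE 0.0977, adjusted p = 5.12e-08). Its siNeg CPM were the higher ones, but CPM were scaled within each line.

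BATF3 lacks a transactivation domain of its own and acts through its JUN family partner. It lies on chromosome 1 from 212686417 to 212699840. TC-71 had the highest control level of BATF3, and there it fell, from 16.2, 13.6 and 15.2 CPM to 10.4, 9.71 and 8.94, which edgeR put at -0.64 on the log2 scale (SE 0.0931, adjusted p = 4.41e-07). In A673 it rose from 0.507, 0.484 and 0.396 CPM, or 47 to 61 counts, to 2.77, 3.05 and 2.89, which edgeR put at 2.65 on the log2 scale (SE 0.128, adjusted p = 1.68e-11). In TC-32 it rose from 1.59, 2.30 and 1.30 CPM, or 31 to 61 counts, to 3.33, 3.33 and 3.35, which edgeR put at 0.93 on the log2 scale (SE 0.201, adjusted p = 1.64e-04). The groups did not overlap in any line, as for 82.6%, 73.8% and 73.6% of all genes (TC-32 first, A673 last). By CPM scaled within each line, the order of the lines for BATF3 was TC-71, TC-32 and A673 with either siRNA. TC-32 and A673 lay close together after siFLI1 (3.34 ± 0.0117 and 2.90 ± 0.140 CPM, SD, n = 3). Levels of the lines were not tested against each other, and TC-71 was counted with another tool.

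MAFF is a small MAF protein, which has a DNA-binding region but no activation domain. It lies on chromosome 22 from 38200767 to 38216507 and shares 5.81% of its exon bases with PLA2G6 on the opposite strand. MAFF rested on few counts with siNeg, with 20 to 36 per library in TC-32 and 13 to 19 in TC-71. It rose from 1.51, 1.28 and 0.842 CPM to 5.60, 6.03 and 6.16 in TC-32, which edgeR put at 2.29 on the log2 scale (SE 0.180, adjusted p = 2.19e-11). TC-71 went from 0.483, 0.659 and 0.659 CPM to 7.0, 6.66 and 5.28, which edgeR put at 3.38 on the log2 scale (SE 0.201, adjusted p = 3.18e-15). A673 went from 3.48, 3.38 and 3.30 CPM to 23.8, 23.0 and 23.2, which edgeR put at 2.79 on the log2 scale (SE 0.0574, adjusted p = 2.75e-16). The lowest of these 3 values, that of TC-32, was 2.08 without TC-32 siNeg replicate 3.

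To set members beside each other, CPM were divided by the union of each gene's exons in kilobases, and the FOS family share was taken of the sum over the 4 FOS and 3 JUN family genes. The JUN family supplied most of this sum in TC-71 and A673 with siNeg, and its share rose in TC-32 and fell in the other lines. The FOS family share fell from 53.1% ± 0.376 to 33.1% ± 1.47 in TC-32 (SD, n = 3), and it was lower in 3 of 3 siFLI1 libraries. TC-71 moved the other way, 15.9% ± 0.198 in siNeg and 38.7% ± 1.70 in siFLI1, as did A673 with 23.9% ± 2.22 and 67.9% ± 0.448, higher in 3 of 3 siFLI1 libraries each time. An exact permutation test (two-sided) gave p = 0.10 in each line, the smallest that 3 libraries against 3 allow, so these shares cannot pass 0.05. The sum itself was 114 ± 2.87 CPM per kb in siNeg and 173 ± 12.5 in siFLI1 of TC-32, 64.3 ± 3.25 and 199 ± 19.0 in those of TC-71, and 30.8 ± 1.07 and 126 ± 4.83 in those of A673 (exact permutation p = 0.10 each).

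The leading transcripts per exon length also changed. In TC-32, FOS made up 42.0% ± 0.227 of the sum with siNeg and 18.1% ± 0.823 with siFLI1, while JUNB went from 6.87% ± 0.448 to 22.9% ± 0.615. With siFLI1, JUN was the most abundant of the 7 in TC-32 at 29.7% ± 0.453. In TC-71, JUND and JUN led with siNeg, at 33.7% ± 0.563 and 31.5% ± 0.546, and with siFLI1 JUN (25.4% ± 0.0987), JUNB (22.2% ± 0.814) and FOSL2 (21.2% ± 1.49) lay close together. JUNB and FOSL2 did not differ beyond their spread there. In A673, JUND made up 50.3% ± 3.17 with siNeg and 9.98% ± 0.0495 with siFLI1, and FOSL1 went from 10.2% ± 1.88 to 50.9% ± 0.416. FOSB supplied at most 2.73% of the sum in any group. Single shares and their order depend on the length used. The exon union of FOS is 3186 bases and its longest transcript 2104, while JUNB has 1830 by either measure. Shares across lines carry the limit that TC-71 was counted with another tool.

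**Figure D3:**
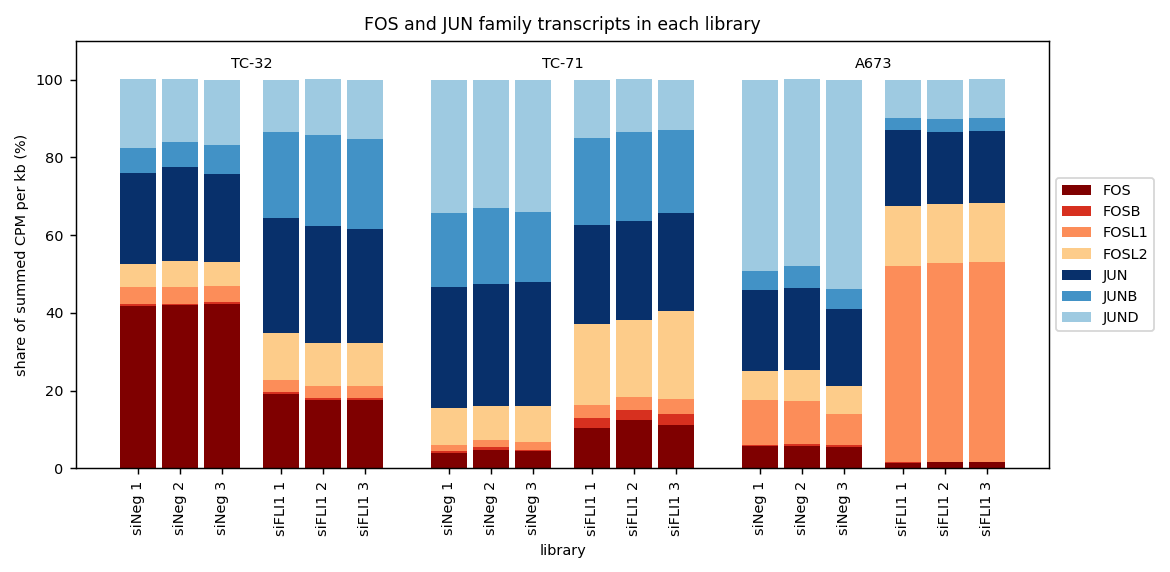
Share of the summed CPM per kilobase of exon (y axis, percent) taken by each FOS family (reds) and JUN family (blues) transcript in each of the 18 libraries (x axis). The FOS family part shrinks from 53.1% to 33.1% in TC-32. TC-71 shows growth from 15.9% to 38.7%, and A673 from 23.9% to 67.9%, where FOSL1 is the largest part after siFLI1.

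A single edgeR model of all 18 libraries over 19610 genes compared the response to siFLI1 from line to line. The effect differed for all 10 members between TC-32 and A673, for 9 between TC-32 and TC-71 and for 10 between A673 and TC-71, against 62.1%, 53.6% and 51.6% of all genes. Over the alternatives and with single libraries left out, these counts ran from 8 to 10, stayed at 9 and ran from 9 to 10, as FOSB, MAFF and FOSL2 each lost a call in some. The exception was JUND between TC-32 and TC-71, with a difference of 0.034 (95% interval -0.20 to 0.27, edgeR adjusted p = 0.861). FOS, BATF3 and JUND were called in opposite directions in some pair of lines. The FOS effects of TC-32 and TC-71 differed by -3.62 on the log2 scale (SE 0.136, edgeR adjusted p = 4.74e-16). For BATF3, A673 exceeded TC-71 by 3.25 (SE 0.174, edgeR adjusted p = 2.16e-17), and for JUND, TC-32 exceeded A673 by 0.70 (SE 0.111, edgeR adjusted p = 3.36e-06). FOSL1 had the largest difference between TC-32 and A673, at -4.16 (SE 0.129, edgeR adjusted p = 1.13e-23), and FOSB between A673 and TC-71, at -4.02 (SE 0.203, edgeR adjusted p = 4.51e-18). FLI1 itself fell by different amounts, by 1.08 less on the log2 scale in TC-32 than in A673 (edgeR adjusted p = 4.11e-14) and by 0.43 less in TC-32 than in TC-71 (edgeR adjusted p = 6.67e-05), and its part in these differences was not tested.

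**Figure D4:**
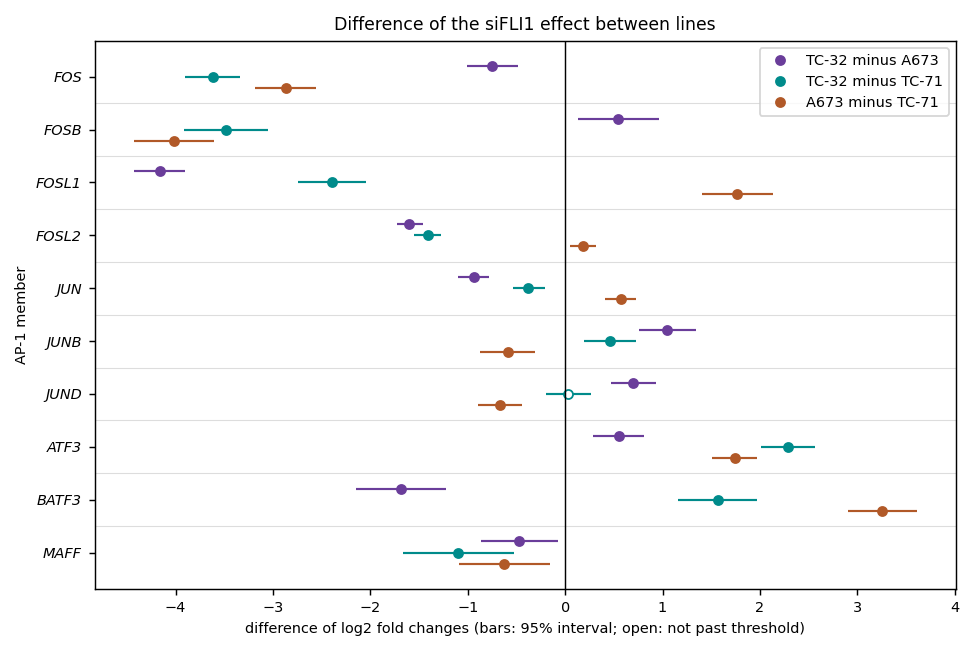
Difference of the siFLI1 effect between lines (x axis, difference of log2 fold changes) for each AP-1 member (y axis) and each pair of lines, with 95% intervals from edgeR and an open symbol where the adjusted p did not pass 0.05. FOSL1 and FOS reach -4.16 and -3.62, and the one open symbol is JUND between TC-32 and TC-71.

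Genes around AP-1 were read from 5 lists, each given by counts beside the shares of all genes above. Among 13 related bZIP genes, 8 rose and 1 fell of 11 tested for TC-32, 8 and 2 of 10 for TC-71, and 7 and 3 of 11 for A673. JDP2, a repressor that pairs with JUN, rose with log2 fold changes of 1.18, 0.85 and 0.25 (TC-32 first, A673 last), and MAFK, a small MAF protein like MAFF, with 0.27, 1.21 and 0.77. Among 20 immediate-early genes outside AP-1, 15 rose and 3 fell of 19 tested for TC-32, 15 and 3 of 19 for TC-71, and 13 and 6 of 20 for A673, with medians of 1.51, 1.48 and 0.64. CCN2 (connective tissue growth factor) had log2 fold changes of 1.52, 6.52 and 4.17, and CCN1, another matricellular protein, had 2.08, 4.74 and 3.44. ARC, known from neurons as an activity-induced gene, fell, with -1.55, -1.36 and -0.16.

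Kinases and factors upstream of AP-1 genes were called in either direction at shares near those of all genes (81.4%, 71.9% and 71%). Of 22 tested, 13 rose and 6 fell for TC-32, 11 and 7 for TC-71, and 9 and 8 for A673, with medians of 0.18, 0.15 and 0.052. MRTFA, the actin-controlled coactivator of SRF, had log2 fold changes of 1.00, 1.91 and 0.38, again with TC-32 first and A673 last, and MEF2D, a factor of the JUN promoter, had 1.16, 0.81 and 0.35. ELK1, the ERK-controlled ETS partner of SRF, had -0.22, -0.75 and -0.16, and MAP2K7, a kinase of JNK, had -0.36, -0.15 and -0.19, each called lower.

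Of 25 genes known as AP-1 targets, 15 rose and 5 fell of 22 tested for TC-32, 11 and 3 of 16 for TC-71, and 21 and 3 of 25 for A673. The median log2 fold change of the tested genes was 1.77, 1.12 and 3.63, and 3.54 in A673 once genes with at most 3 counts in every library of a group were set to that floor. Some genes passed the low-count filter only through siFLI1, such as MMP3 and MMP13 in TC-32 with 0 CPM in siNeg. The floor does not remove this selection, which favours rises, and the number of genes tested differed between lines. LIF, a cytokine, measured 0.698 ± 0.277 CPM in siNeg and 11.0 ± 0.457 in siFLI1 of TC-32 (SD, n = 3). Its levels, in the same order, were 0.0417 ± 0.0380 and 5.68 ± 0.839 for TC-71, and 0.385 ± 0.0788 and 70.6 ± 5.91 for A673. The TC-71 siNeg level lies below the floor of 3 counts, which is at least 0.104 CPM in those libraries. These genes answer to many factors, and the part of AP-1 in their change was not tested.

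ATF3 is also a gene of the integrated stress response, so 9 other genes of stress responses were read beside it. All 9 were called in each line, with 4 up and 5 down for TC-32, 3 and 6 for TC-71, and 2 and 7 for A673. Over all genes, with the lines listed alike, the calls were 41.3% up and 40.1% down, 36.8% and 35.0%, and 35.6% and 35.4%. No direction of the list was tested. PPP1R15A, a phosphatase subunit that ends the response, had log2 fold changes of 1.13, 1.29 and 0.98, and the lipoprotein receptor gene VLDLR had 2.85, 3.06 and 1.97. CEBPB, a bZIP factor, had -1.75, -2.37 and -1.89, and CHAC1, a glutathione-degrading enzyme, -0.68, -2.67 and -1.18. ATF4, the main factor of that response, chosen here after its values were seen, had -0.37, -0.60 and -0.23 (highest edgeR adjusted p = 1.71e-05). DDIT3, of the same list and chosen in the same way, had 0.62, 0.46 and -0.49 (highest edgeR adjusted p = 2.48e-06). The part of stress responses in the rise of ATF3 was not tested.

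**Figure D5:**
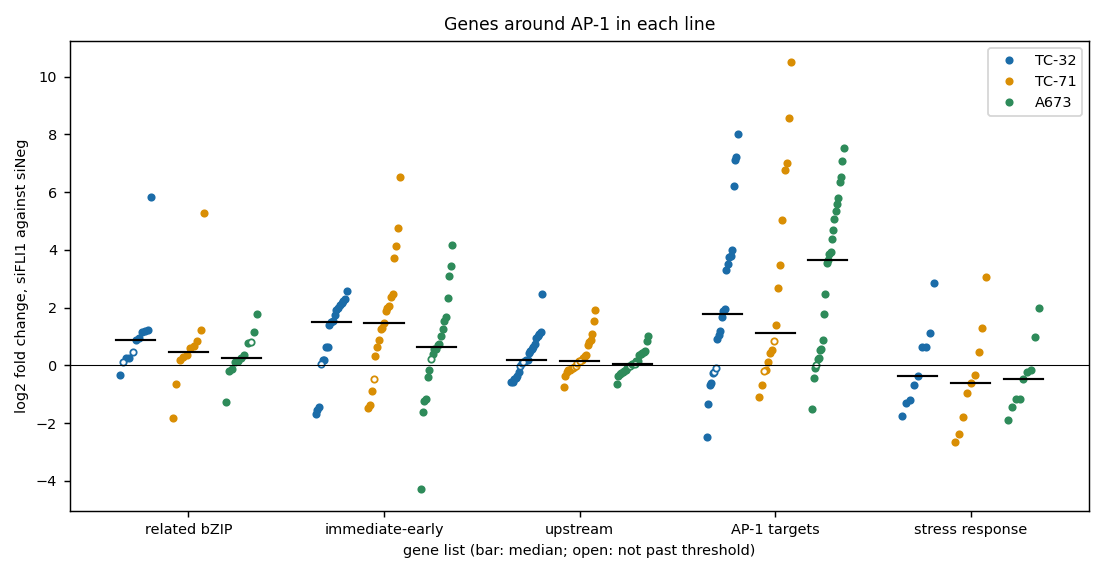
Log2 fold change of siFLI1 against siNeg (y axis) for each tested gene of 5 lists around AP-1 (x axis) in each line (colours), with black bars for list medians and open symbols where the adjusted p did not pass 0.05. The medians of AP-1 targets are 1.77, 1.12 and 3.63, and those of stress response genes lie below 0.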

How the data were processed

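Transcripts were measured in 18 libraries, 3 per siRNA and line. The deposited values are unscaled expected counts for A673 and TC-32 (RSEM, by the table names). For TC-71 the deposited values are unscaled counts (Subread, by the table name). The submitters' processing notes name cutadapt 4.4, STAR 2.7.3, featureCounts, Subread 2.0.3, limma 3.38.3 and GRCh38, without roles. The annotation release and strand setting are not given in the sources used here. The line of TC-32 and TC-71 columns rests on the table name.

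Expected counts were rounded. Each line was fitted alone in R 4.3.3 with edgeR 4.0.16 (filterByExpr, TMM, robust quasi-likelihood F-test, Benjamini-Hochberg over all genes tested, called at an adjusted p under 0.05). All adjusted p-values given are from edgeR by this procedure unless another tool is named. A prior count of 0.125 shrinks the log2 fold changes, whereas SEs rest on unshrunken coefficients. The 95% intervals are centred on the shrunken values and take their width from these SEs. The floor of 3 counts covers counting error only, since reads carry no molecular identifiers. Differences between lines were contrasts in a model of 6 group means. Positions, exon lengths and overlaps are from GENCODE release 44 (GRCh38), read with Python 3.11.15, and promoter windows of 250 bases from RefSeq, printed for the 5 members whose window held at most 30 annotated exon bases. Replicates differed by more than sampling noise in every pair (lowest chi-square per degree of freedom 2.52). The fits were tested on simulated data.

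Members, lists, naming rule and alternatives were chosen while earlier results of these data were known. All 10 members and FLI1 were named. From each list, the 2 highest and 2 lowest mean log2 fold changes were named among genes whose calls had 1 direction over the lines, at a mean log2 CPM of at least 1 in each. 1 gene that this rule names is not reported here. As alternatives, DESeq2 1.42.0 and limma-voom (limma 3.58.1) replaced edgeR, RLE factors or library size alone replaced TMM, and the filter was dropped or set to a mean count of 10. Further ones were unrounded expected counts, the replicate number as a block, only the 12 libraries of both lines, another gene length, a wider sum of members, and each library left out in turn.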

Additional observations from a re-analysis of the deposited data

Results flagged for a closer look

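The values below are differences of the siFLI1 effect between lines past the threshold of the edgeR interaction test, on the log2 scale. Since 62.1%, 53.6% and 51.6% of all genes passed it for TC-32 minus A673, TC-32 minus TC-71 and A673 minus TC-71, a difference is common in these data. The pairs share lines, so the values of a member are not independent. FOS differed by -0.75, -3.62 and -2.87 in that order of pairs, and FOSL1 by -4.16, -2.39 and 1.77. JUN differed by -0.94, -0.38 and 0.57, JUNB by 1.05, 0.46 and -0.59, and ATF3 by 0.55, 2.29 and 1.74. BATF3 differed by -1.69, 1.57 and 3.25. JUND differed by 0.70 for TC-32 minus A673 and by -0.67 for A673 minus TC-71.

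FOSB differed by 0.54, -3.48 and -4.02. Its first value passed narrowly (edgeR adjusted p = 0.0211) and did not pass without TC-32 siNeg replicate 2 (0.41, edgeR adjusted p = 0.0962), without TC-32 siFLI1 replicate 3 (0.48, 0.0546) or with only the 12 libraries of both lines (0.47, 0.0673).

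MAFF differed by -0.47, -1.10 and -0.63. The first (edgeR adjusted p = 0.0351) did not pass under library size alone (-0.35, edgeR adjusted p = 0.122), with the replicate number as a block (-0.47, 0.0524), or without TC-32 siNeg replicate 1 (-0.29, 0.289), TC-32 siNeg replicate 2 (-0.42, 0.123), TC-32 siFLI1 replicate 1 (-0.43, 0.0666) or A673 siNeg replicate 3 (-0.45, 0.0579). The last did not pass without TC-71 siNeg replicate 1 (-0.49, edgeR adjusted p = 0.129).

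FOSL2 differed by -1.60, -1.41 and 0.18. The last (edgeR adjusted p = 0.0208) did not pass under library size alone (0.12, edgeR adjusted p = 0.114). Nor did it without TC-71 siFLI1 replicate 1 (0.15, edgeR adjusted p = 0.0654), TC-71 siFLI1 replicate 3 (0.17, 0.0534), A673 siNeg replicate 1 (0.17, 0.0580), A673 siFLI1 replicate 2 (0.15, 0.0648) or A673 siFLI1 replicate 3 (0.17, 0.0592).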

How the results depend on the processing

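Over the alternatives, the number of AP-1 members called stayed at 9 or 10 in TC-32, at 10 in TC-71 and at 8 or 9 in A673, and no member changed direction within a line. The calls gained were FOSL1 in TC-32 under library size alone (0.21) and FOS in A673 without siFLI1 replicate 1 (0.24). Scaling to library size alone shifted the A673 median over all genes from -0.0066 to -0.11. The FOS family share moved with the longest transcript as length, from -19.9 to -22.0 percentage points in TC-32 and from 22.8 to 24.6 in TC-71. With ATF3, BATF3 and MAFF in the total, the A673 shift was 37.6 in place of 44, since the total is then larger. The difference of JUND between TC-32 and TC-71 ran from -0.077 to 0.11 when single libraries were left out, reversing in 4 of these fits, and the cause was not tested. With the replicate number as a block, 13053, 12048 and 12467 genes passed (TC-32 first, A673 last), with 9, 10 and 8 members. Among single members it ended only the call of MAFF for TC-32 minus A673 (-0.47, edgeR adjusted p = 0.0524). Same-numbered libraries showed no marked joint deviation (correlations of -0.0784 to 0.0422 over 9 pairs). Deviations from means of 3 libraries can miss a weak shared effect, so whether the number pairs them is not known. At this depth, MAFF and FOSB in TC-71 siNeg rested on 13 to 43 counts.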
